A study of Homo sapiens with 4 samples.

Results

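The regions described are the stretches of open chromatin at 8 genes that encode transcription factors of the endocrine lineage of the pancreas, NEUROG3, NEUROD1, INSM1, PAX4, PAX6, ISL1, RFX6 and MAFA. The regions were taken by position alone, at genes chosen with earlier results of these data known. Peaks of all 4 libraries were merged wherever they shared a base, and every merged region that overlapped 1 of the 8 gene bodies extended by 20 kb on each side was taken, which gave 51 of 164301 merged regions. The measurement was ATAC-seq, in which a transposase inserts sequencing adapters into accessible DNA. The cells were pancreatic progenitors derived from MEL1, an established human embryonic stem cell line and the only line behind these libraries. The study's methods name it MEL1 INS GFP/W, a line in which GFP was placed at one INS allele as a reporter. Both groups were kept for 7 days in the basal medium EF6, which is DMEM with B27 diluted 1 in 50, EGF at 50 ng/ml, bFGF at 10 ng/ml and the TGF-β pathway inhibitor 616452 at 10 μM. The DMSO group received the solvent, and the other group received 1 μM I-BET151, an inhibitor of the BET bromodomain proteins that read acetylated histones. There were 2 libraries in each group, each made from 50000 cells, and nothing in the labels says whether they came from separate cultures, so a p-value given here measures only the spread between these libraries.

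Endocrine cells of the pancreas arise from progenitors that switch on NEUROG3 for a short time, and NEUROG3 in turn activates NEUROD1, INSM1 and PAX4. RFX6 acts both before and after this step. PAX6, ISL1 and later MAFA act in the cells that follow, where they drive hormone genes. An accessible region near such a gene marks a place where regulatory proteins can bind DNA, and it does not by itself show that the gene is transcribed. RNA was not analysed here, and in such bulk libraries a larger share of cells with an open region and a more open region in each cell cannot be told apart.

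The sequences below are the 200 bases around the summit of the regions on which the results turn: the region at the ISL1 start, which was the region called for a shift in rank, the intronic RFX6 region with the highest I-BET151 signal among those called only with I-BET151, the region at the RFX6 start, 2 regions upstream of PAX4 with the highest ranks of its locus, and the INSM1 region found only in DMSO. All are given 5′ to 3′ on the plus strand of hg38, and capitals mark matches, on either strand, to words bound by known factor families.

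ISL1 start, chr5:51383236-51383435: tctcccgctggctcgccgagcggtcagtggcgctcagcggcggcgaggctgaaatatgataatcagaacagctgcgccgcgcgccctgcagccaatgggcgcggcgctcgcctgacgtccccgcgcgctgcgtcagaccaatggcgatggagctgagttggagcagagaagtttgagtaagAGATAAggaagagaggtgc

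RFX6 intron, chr6:116884598-116884797: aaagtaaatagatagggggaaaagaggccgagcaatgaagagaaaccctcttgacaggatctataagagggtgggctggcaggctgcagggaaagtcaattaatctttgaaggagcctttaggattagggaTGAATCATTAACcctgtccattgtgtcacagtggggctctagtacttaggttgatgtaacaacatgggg

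RFX6 start, chr6:116876718-116876917: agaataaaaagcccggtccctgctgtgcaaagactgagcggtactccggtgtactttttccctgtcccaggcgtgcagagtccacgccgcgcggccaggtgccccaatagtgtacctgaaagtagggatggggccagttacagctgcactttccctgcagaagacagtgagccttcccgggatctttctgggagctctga

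PAX4 far upstream, chr7:127635830-127636029: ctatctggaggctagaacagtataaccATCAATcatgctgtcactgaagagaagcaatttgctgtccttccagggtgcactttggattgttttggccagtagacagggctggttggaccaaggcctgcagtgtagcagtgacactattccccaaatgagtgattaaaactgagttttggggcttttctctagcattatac

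PAX4 upstream, chr7:127629467-127629666: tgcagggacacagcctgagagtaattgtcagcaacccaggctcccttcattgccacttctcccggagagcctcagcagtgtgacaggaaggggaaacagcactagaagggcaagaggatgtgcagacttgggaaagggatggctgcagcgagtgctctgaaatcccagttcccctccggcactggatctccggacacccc

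INSM1 upstream, chr20:20356529-20356728: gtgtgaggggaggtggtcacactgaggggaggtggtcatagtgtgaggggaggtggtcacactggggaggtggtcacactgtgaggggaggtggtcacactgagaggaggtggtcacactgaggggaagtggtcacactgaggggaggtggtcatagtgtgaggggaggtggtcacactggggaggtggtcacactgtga

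The capitals at the ISL1 start are the GATA word AGATAA. In the RFX6 intron they join an AP-1 match (TGANTCA) and an HNF1 match (GTTAAT, here on the minus strand) that share 1 base. Upstream of PAX4 they are ATCAAT, a word of ONECUT1 (HNF6). The INSM1 window was a tandem repeat by its letters, with 71.6% of its bases equal to the base 38 positions further on, whereas the best such shift in the other windows gave 30.9% to 35.4%. How reads that fit several copies of a repeat were placed was not analysed here.

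The 10 words searched in the 200 bases around each summit, on both strands, were counted in the 51 regions and in all merged regions, as a description. The GATA word was found in 10 regions (19.6%, against 14.2% of all regions), the HNF1 word in 8 (15.7% against 8.23%) and the E-box CAGATG, a word of NEUROD1 and NEUROG3, in 7 (13.7% against 14.5%). ATCAAT occurred in 5 regions (9.80% against 9.17%), GGAATG (TEAD) in 6 (11.8% against 15.0%), TAATTA (PDX1 and other homeodomain factors) in 4 (7.84% against 4.65%), and GTTGCC, a word of the RFX family, in 4 (7.84% against 7.47%). The AP-1 word was in 2 regions (3.92% against 11.2%), the CTCF consensus in 2 (3.92% against 1.89%) and TGTTTAC (FOXA) in 1 (1.96% against 4.62%). A match describes letters and not a bound site. The regions had a median GC content of 52.5% around the summit and a median width of 396 bp, against 48% and 405 bp for all merged regions.

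The peak lists held 82568 and 38295 peaks for DMSO replicates 1 and 2 and 84995 and 111324 peaks for I-BET151 replicates 1 and 2. Reads behind the lists, estimated from the background of each list, came to 38.7 and 36.6 M reads for DMSO and 12.5 and 16.0 M reads for I-BET151, so the group with fewer reads had the higher median fold enrichment (5.56 and 6.03, against 3.88 and 4.08). Fold enrichment is the pileup of reads at a summit divided by the local background, each plus 1 read. For this reason each peak was also ranked within its own list, as a percentile of fold enrichment from 0 for the lowest to 100 for the highest. Part of the pancreatic progenitor markers were open as the label says: of 10 such genes, 8 and 7 had a called region at the start in DMSO and 9 and 9 in I-BET151, with NKX6-1 and SOX9 in all 4 lists, PDX1 only in the I-BET151 lists and PTF1A in none. Of 5 markers of hormone-producing islet cells, 1 and 0 had a called start in DMSO and 1 and 2 in I-BET151, and the starts of INS, GCG and IAPP were called in no list. The islet sums of start percentiles were 20.3 and 0 in DMSO and 41.2 and 132 in I-BET151. Of 4 pluripotency markers, 1 and 1 were called in DMSO and 0 and 1 in I-BET151, with POU5F1 and NANOG in no list. The pluripotency sums of start percentiles were 44.3 and 6.82 in DMSO and 0 and 10.6 in I-BET151. The sums of the progenitor markers were 394 and 342 in DMSO and 507 and 461 in I-BET151, and those of the 8 genes were 152 and 113, and 291 and 288. The sums of 10 other endocrine regulators, named below, went the other way, with 355 and 346 in DMSO and 340 and 316 in I-BET151. Starts of markers of 3 other cell types were open too, with sums that were higher in I-BET151, as for the progenitor markers, the islet markers and the 8 genes. Of 4 hepatocyte markers, 3 and 2 had a called start in DMSO and 4 and 4 in I-BET151, and the summed percentile of those starts was 78.1 to 173 in DMSO and 260 to 270 in I-BET151. Of 4 mesenchymal markers, 2 and 2 were called in DMSO and 3 and 3 in I-BET151, with sums of 65.2 to 86.7 and 129 to 174. Of 4 neuronal markers, 2 were called in each library, with sums of 51.9 to 91.0 and 122 to 129. The part of these cells and of the depth in the results was not tested.

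**Figure D1:**
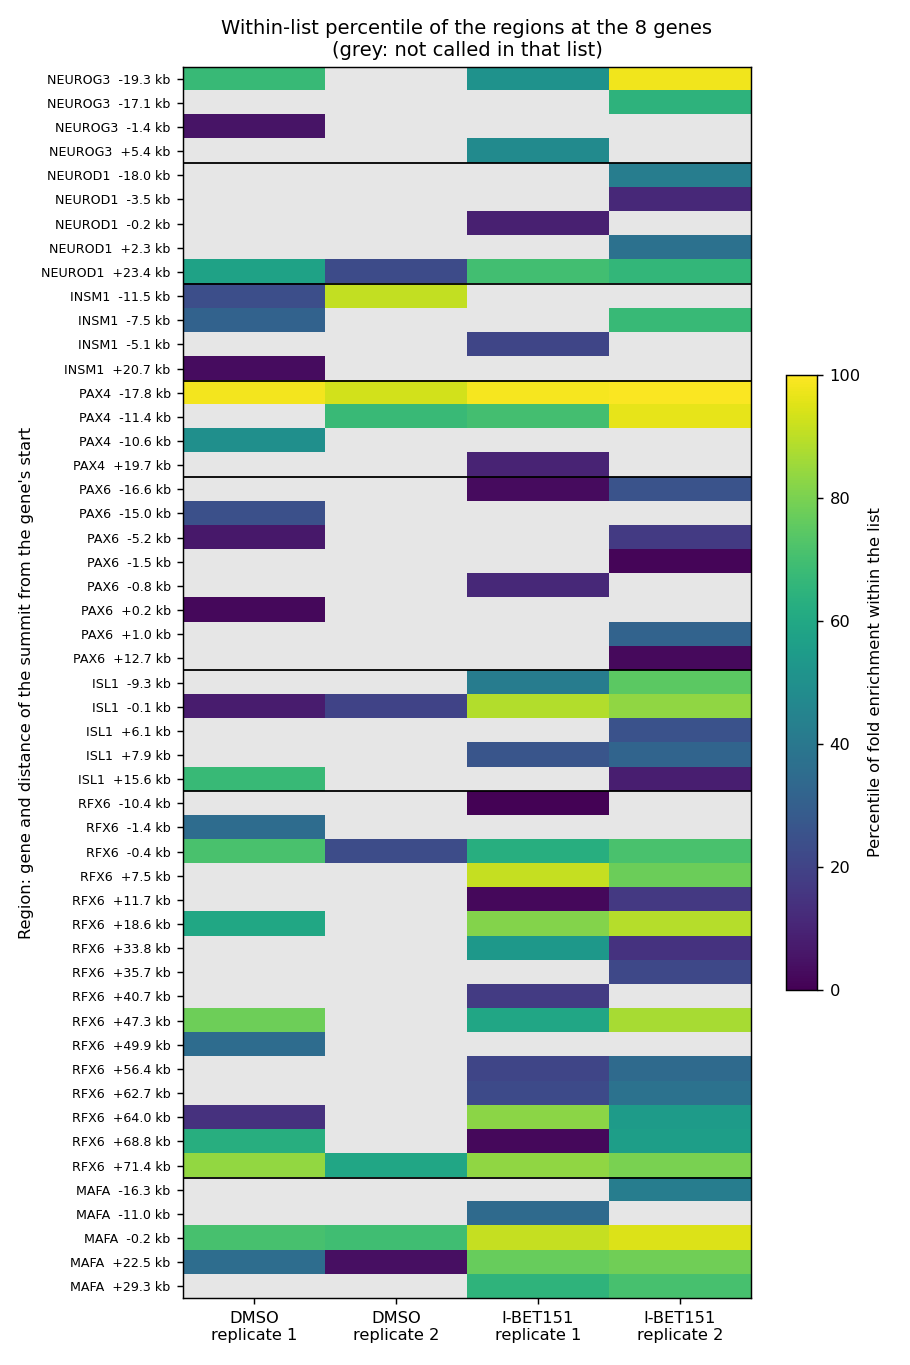
Within-list percentile of fold enrichment (colour, 0 to 100) for the 51 regions (rows, by gene and by distance of the summit from the gene's start in kb) in the 4 libraries (columns), with grey where a region was not called. The DMSO replicate 2 column has 9 coloured cells and the I-BET151 replicate 2 column has 35.

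The regions at the 8 genes, like all merged regions, were called more often in each I-BET151 list than in each DMSO list. Of the 51 regions, 23 were called in DMSO replicate 1, 9 in DMSO replicate 2, 30 in I-BET151 replicate 1 and 35 in I-BET151 replicate 2, which is 45.1%, 17.6%, 58.8% and 68.6%. Over all merged regions the shares were 47.9%, 22.9%, 49.2% and 67.7%, in the same order of libraries. Both I-BET151 lists and neither DMSO list held 9 of the 51 regions (17.6%), close to the 17.0% of all merged regions with this pattern. The reverse pattern, both DMSO lists and neither I-BET151 list, was found for 1 region (1.96%, against 2.37% of all). All 4 lists held 7 regions (13.7%, against 15.6% of all), and 25 regions were called in a single list, 7 of them in DMSO replicate 1, 8 in I-BET151 replicate 1, 10 in I-BET151 replicate 2 and 0 in DMSO replicate 2. The 9 gained regions lay at RFX6 (5), ISL1 (2), PAX6 (1) and MAFA (1), and none lay at NEUROG3, NEUROD1, INSM1 or PAX4. The count turned on which lists were compared, and so did the share over all regions. Without DMSO replicate 1, 14 of 44 regions were gained (26.8% of all merged regions), without I-BET151 replicate 1 it was 19 of 43 (43.7% of all), and without I-BET151 replicate 2 it was 18 of 43 (35.8% of all). With every list reduced to its 38295 strongest peaks, 4 of 20 were gained (9.19% of all). The lost count was 8 of 51 without DMSO replicate 2 (20.9% of all) and 0 of 20 in lists of equal length (5.85% of all).

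By position, 25 regions lay upstream of their gene, 12 downstream, 10 in introns, 3 in coding parts of exons and 1 in the UTR part of an exon. Of the regions, 7 had their summit within 1 kb of the canonical start of their gene. The start of another protein-coding gene was nearer to the summit than that of the listed gene for 6 regions.

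A gene percentile, the mean within-list percentile of all regions of a gene with 0 where a region was not called, was computed for each library. For 6 of the 8 genes the lower I-BET151 value exceeded the higher DMSO value, namely NEUROG3, NEUROD1, PAX4, ISL1, RFX6 and MAFA. This order was found for 51.3% of the 18865 protein-coding genes with a region. NEUROG3 had it only with its regions near mitochondrial pseudogenes, described below. The opposite order, found for 2.96% of genes, occurred at 0 of the 8, and the values of INSM1 and PAX6 overlapped between groups. The median difference, I-BET151 minus DMSO, over the 8 genes was 18.7 percentile points, and it was 10.7 over all genes. Over the marker lists given above it was 23.5 for hormone-producing islet cells, 18.3 for mesenchymal cells, 17.5 for neurons and 16.8 for hepatocytes. It was 13.4 for the pluripotency markers and 11.9 for the progenitor markers. With 2 libraries against 2 the exact two-sided permutation test cannot go below p = 0.333, which was the value for each of the 6 genes, and it gave p = 0.667 for INSM1 and for PAX6. Leaving out single libraries moved the median difference between 11.4 (without DMSO replicate 2) and 28.2 (without I-BET151 replicate 1). Without the regions near mitochondrial pseudogenes the median difference was 13.1. It was 10.7 with regions within 5 kb of the genes, 11.1 within 50 kb and 7.12 in the replicate 1 libraries alone. The median over all genes is given for the main setting alone, so it is no like measure for these alternatives.

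**Figure D2:**
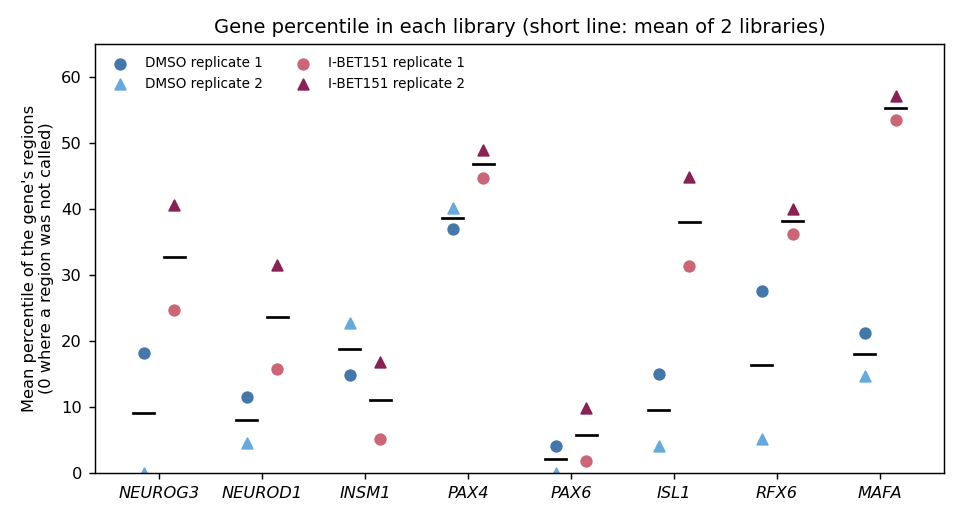
Gene percentile (y axis, mean percentile of a gene's regions with 0 where not called) of the 8 genes in each library, with DMSO in blue, I-BET151 in red, circles for replicate 1, triangles for replicate 2 and a short line at each mean of 2 libraries. The groups do not overlap for 6 genes, and MAFA shows the widest gap, from 14.7 and 21.3 to 53.5 and 57.2.

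NEUROG3, the factor that commits progenitors to the endocrine fate, had 4 regions and no called region within 1 kb of its start in any list. Its gene percentile was 18.1 and 0 in DMSO and 24.7 and 40.6 in I-BET151, a difference of 23.6, and the DMSO libraries differed from each other by 18.1. The difference was 43.6 without DMSO replicate 1, 14.5 without DMSO replicate 2 and 42.0 without I-BET151 replicate 1. The region nearest to its start, 1401 bp upstream, was called in DMSO replicate 1 alone, with a fold enrichment of 2.81. The region 19349 bp upstream had a fold enrichment of 4.40 in DMSO replicate 1, 5.61 in I-BET151 replicate 1 and 15.1 in I-BET151 replicate 2, and was not called in DMSO replicate 2. That region and another one 17072 bp upstream, called only in I-BET151 replicate 2 at a fold enrichment of 7.30, lay within 200 bases of annotated mitochondrial pseudogenes, nuclear copies of mitochondrial DNA. Reads from such copies and from mitochondria can share sequence, so these values are uncertain. Without both regions the difference was 10.7 percentile points and rested on 2 regions that were each called in 1 list. These lists were DMSO replicate 1 and I-BET151 replicate 1. I-BET151 replicate 2 then held no region of the gene, so the groups overlapped.

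NEUROD1, a direct target of NEUROG3 that carries the endocrine programme forward, had 5 regions. Its gene percentile was 11.5 and 4.59 in DMSO and 15.8 and 31.4 in I-BET151. The region at its own start, 232 bp upstream, was called only in I-BET151 replicate 1, at a fold enrichment of 3.78 from 13 reads. The region called in all lists lay 23425 bp downstream of the NEUROD1 start and 13 bp from the start of CERKL, a ceramide kinase-like gene that also spans NEUROD1, so the whole DMSO value of the NEUROD1 percentile came from a region at the start of another gene. Its fold enrichment was 4.11 and 3.33 in DMSO and 7.05 and 7.49 in I-BET151.

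INSM1, a zinc-finger repressor needed for endocrine differentiation, was the gene with a lower mean percentile in I-BET151, with 14.8 and 22.7 in DMSO and 5.20 and 16.9 in I-BET151. The groups overlapped. None of its 4 regions lay within 1 kb of its start. The region lost with I-BET151, chr20:20356260-20357774, lay 11475 bp upstream of INSM1 within CFAP61 and is the tandem repeat printed above. It had a fold enrichment of 3.33 and 7.06 in DMSO, from 21 and 45 reads, at percentiles of 24.2 and 90.7. No other INSM1 region was called in DMSO replicate 2, so the lower mean of INSM1 in I-BET151 rested on this repeat. Within 5 kb of the gene the difference turned positive, to 10.4 percentile points. That value rested on 1 region, called in I-BET151 replicate 1 alone at a fold enrichment of 4.23 from 11 reads.

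PAX4, which favours beta and delta cells over alpha cells, had the highest-ranked region of all 8 loci and the smallest difference between groups among the 6 genes whose groups did not overlap. That region, chr7:127635389-127636300, lay 17788 bp upstream of PAX4 and slightly nearer, at 16264 bp, to the start of SND1. Its fold enrichment was 8.86 and 7.65 in DMSO and 14.8 and 18.0 in I-BET151, and its percentile was 98.1, 93.1, 98.7 and 99.6 in DMSO replicates 1 and 2 and I-BET151 replicates 1 and 2. It was thus near the top of every list. A second region, chr7:127629202-127629762, 11425 bp upstream, was not called in DMSO replicate 1 and had a fold enrichment of 4.81 in DMSO replicate 2, 7.07 in I-BET151 replicate 1 and 13.9 in I-BET151 replicate 2. No list held a region within 1 kb of the PAX4 start. The gene percentile was 37.0 and 40.2 in DMSO and 44.6 and 48.9 in I-BET151, a difference of 8.17. It was 13.8 without I-BET151 replicate 1, 15.3 in lists of equal length and 36.3 at a −log10 p of at least 10.

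PAX6, a paired-box factor that acts in all islet cell types and in the eye and brain, had 8 regions with fold enrichments from 2.64 to 4.93, and no region was called in more than 2 lists. Its gene percentile was 4.14 and 0 in DMSO and 1.85 and 9.77 in I-BET151, the lowest of the 8 genes in each group. Within 1 kb of its canonical start there were 3 regions, each called in 1 list, in DMSO replicate 1 (fold enrichment 2.64), I-BET151 replicate 1 (3.98) and I-BET151 replicate 2 (4.93). The gained region, 16599 bp upstream, had a fold enrichment of 3.52 and 4.59 in I-BET151 from 8 and 12 reads. The difference of 3.74 percentile points was smaller than the spread within I-BET151 (SD 5.60, n = 2).

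Of the 51 regions, only the 7 called in all lists were tested for a rank shift. ISL1, a LIM-homeodomain factor of early endocrine cells and of motor neurons, gave the one that passed. The region at its start, chr5:51382821-51383818, had a fold enrichment of 2.91 and 3.25 in DMSO and 10.0 and 9.86 in I-BET151, from pileups of 17, 19, 32 and 50 reads. The I-BET151 libraries were both above the DMSO libraries, in reads as well as in fold, although the DMSO libraries had more reads in all. Its percentile was 7.81 and 20.2 in DMSO and 88.4 and 83.4 in I-BET151. On normal scores of the ranks among the 25627 regions called in all lists, it moved up by 1.89 ± 0.411 (SE; limma, n = 2 per group, adjusted p = 0.0206 over all 25627 regions), a larger shift than 99.2% of them. The peaks merged there did not all overlap. The DMSO replicate 1 peak spanned -627 to -428 bp from the start and the I-BET151 replicate 1 peak -335 to 207 bp. They shared no base and were joined by the longer peaks of the other libraries. The reads and fold of these libraries thus come from different positions. When a peak had to share 50% of its length the region was no longer held by all lists, and the call was lost under 3 alternatives. With ranks by −log10 p the shift was 1.9 (limma, adjusted p = 0.116), and without DMSO replicate 1 it was 1.42. With scaled pileups it was 0.64 (limma, adjusted p = 0.119). Scaled pileups are log2 pileups centred on each library's median over regions called in all lists, so this shift is in log2 units and not in normal scores.

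ISL1 also had 2 gained regions. The region 9289 bp upstream of its start, chr5:51373993-51374349, had a fold enrichment of 5.19 and 8.49 in the I-BET151 libraries. The region in its exon 5, 7890 bp downstream of the start, had 4.55 and 4.96. Neither was called in DMSO. The ISL1 gene percentile was 15.0 and 4.04 in DMSO and 31.3 and 44.8 in I-BET151, and its difference of 28.5 was above that of 92.2% of genes. In lists of equal length the difference was 17.4.

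RFX6, a winged-helix factor that acts in the gut endoderm and again in islet cells, had the most regions, 16, and 5 of the 9 gained ones. Its gene percentile was 27.5 and 5.16 in DMSO and 36.3 and 40.0 in I-BET151, so the DMSO libraries differed from each other by more than the I-BET151 libraries did. The difference of 21.8 was 10.6 without DMSO replicate 2, in which 2 of the 16 regions were called, and 37.7 without DMSO replicate 1. The 201 genes with as many regions had a median difference of 11.9.

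At the RFX6 start, chr6:116876695-116877693, the fold enrichment was 4.59 and 3.34 in DMSO and 6.36 and 8.02 in I-BET151. Relative to the other regions called in all lists the order was mixed, with percentiles among them of 35.9 and 11.9 in DMSO and 26.0 and 26.3 in I-BET151, and the shift of 0.13 ± 0.402 did not pass (SE; limma, n = 2 per group, adjusted p = 0.873). The strongest gained region, chr6:116883959-116884993, lay in intron 4, 7456 bp into the gene and 91 bp from the start of another annotated RFX6 transcript. It had a fold enrichment of 10.8 and 8.91 in the I-BET151 libraries from 42 and 49 reads, at percentiles of 91.3 and 77.7, and no peak in either DMSO list. The other gained regions had lower values. They lay in intron 4 (fold enrichment 3.44 and 4.06), intron 7 (5.72 and 3.97) and downstream of the gene (4.24 and 5.14, and 4.34 and 5.22).

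**Figure D3:**
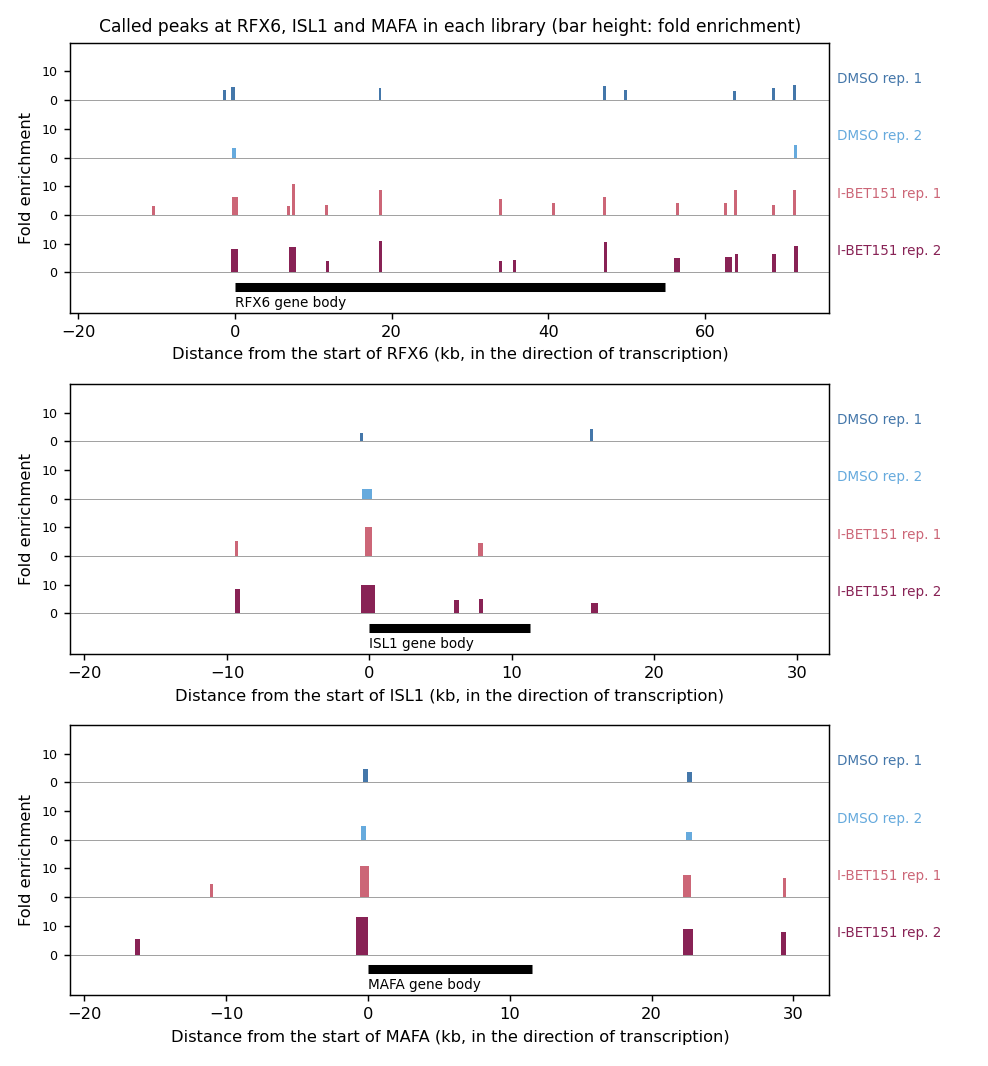
Called peaks at RFX6, ISL1 and MAFA, with the distance from the gene's start in kb on the x axis, 1 track per library and bar height giving fold enrichment (very narrow peaks are widened to stay visible), and a black bar for the gene body. At RFX6 a bar stands 7.5 kb into the gene in both I-BET151 tracks and in neither DMSO track, and at ISL1 and MAFA the bars at the start are tallest in the I-BET151 tracks.

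MAFA, a bZIP factor of mature beta cells that activates the insulin gene, had the largest difference among the 8 genes. Its gene percentile was 21.3 and 14.7 in DMSO and 53.5 and 57.2 in I-BET151, and the difference of 37.4 was above that of 97.0% of genes. At its start, 176 bp upstream, the fold enrichment was 4.55 and 4.89 in DMSO and 10.7 and 13.0 in I-BET151, and the reads at the summit were 51, 46, 45 and 101. Fold enrichment thus differed between groups where the read pileups overlapped. The shift of 0.84 ± 0.389 did not pass (SE; limma, n = 2 per group, adjusted p = 0.193). The region 22520 bp downstream of the start had a fold enrichment of 3.58 and 2.74 in DMSO and 7.86 and 8.99 in I-BET151, from 36, 25, 24 and 44 reads, with a shift of 1.46 ± 0.413 that fell short of the threshold (SE; limma, n = 2 per group, adjusted p = 0.0506). That call changed at a −log10 p of at least 5 (limma, adjusted p = 0.0419), in lists of equal length (limma, adjusted p = 0.0203) and without I-BET151 replicate 2 (limma, adjusted p = 0.0120). With scaled pileups, centred on each library's median, in place of ranks by fold, both MAFA shifts were negative. They were -0.40 downstream and -0.04 at the start in log2 units, and neither passed (limma, adjusted p = 0.283 and 0.925). Such centring sets a region beside the other shared regions of its library and does not compare reads per depth. A further region 29280 bp downstream was gained, with a fold enrichment of 6.60 and 7.97, and the remaining 2 MAFA regions were each called in 1 I-BET151 list.

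**Figure D4:**
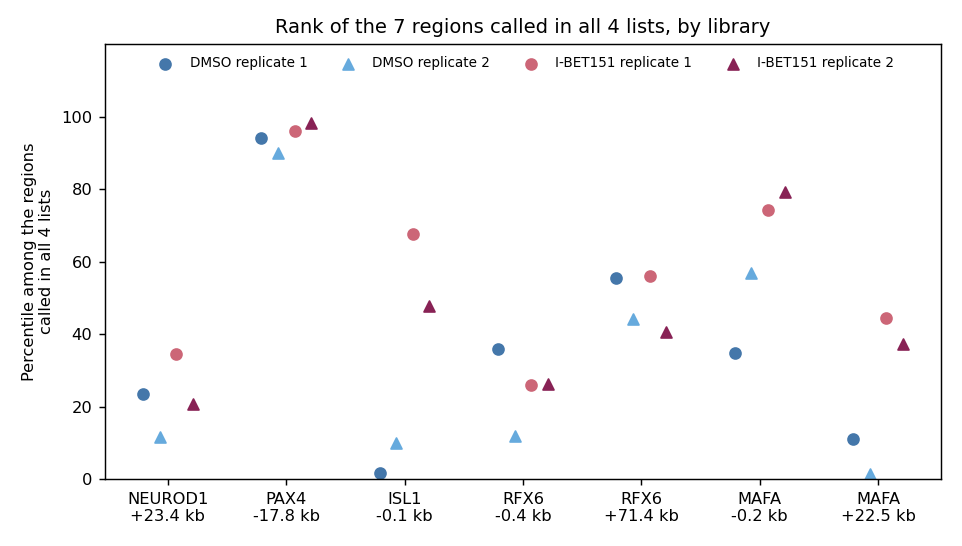
Percentile of fold enrichment among the 25627 regions called in all lists (y axis) for the 7 such regions at the 8 genes (x axis, with distance of the summit from the start), with DMSO in blue, I-BET151 in red, circles for replicate 1 and triangles for replicate 2. The ISL1 start region goes from 1.83 and 9.91 in DMSO to 67.6 and 47.8 in I-BET151, and both RFX6 regions overlap between the groups.

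Among the 7 regions called in all lists, 1 moved up and 0 moved down by limma (adjusted p under 0.05), against 3.41% and 1.96% of all 25627. At an unadjusted p under 0.05 there were 3 of the 7 and 6372 of all, and 6 of the 7 shifts were positive. The ratio of fold enrichment, I-BET151 over DMSO, had a median of 1.72 in the replicate 1 libraries and 2.41 in the replicate 2 libraries over these 7 regions, beside 1.58 and 2.04 over all shared regions, so fold enrichment was higher with I-BET151 across the genome. At the ISL1 start it was 3.43 and 3.04. The RFX6 region 71379 bp downstream of the start, the one with the highest mean percentile at that gene, had a fold enrichment of 5.40 and 4.39 in DMSO and 8.86 and 9.27 in I-BET151, ratios of 1.64 and 2.11 and a shift of -0.04 ± 0.384, and the regions at CERKL and far upstream of PAX4 did not pass (limma, adjusted p = 0.966, 0.612 and 0.449).

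A further list of 10 regulators of endocrine cells (NKX2-2, RFX3, MYT1, ST18, FEV, LMX1B, GLIS3, POU3F4, SOX4 and PROX1) was compared in the same way. It held 176 regions at 9 genes, and POU3F4 had none. Of these regions 39 were gained (22.2%, against 17.0% of all merged regions) and 1 was lost (against 2.37% of all). All lists held 30, of which 2 moved up and 4 moved down by limma, against 3.41% and 1.96% of all 25627. The median difference in gene percentile was 15.0, against 10.7 over all genes. Without overlap 7 of the 9 genes were higher, an order found for 51.3% of all protein-coding genes with a region. FEV, a serotonergic factor also made by endocrine precursors, had the largest difference, from 3.04 and 13.3 in DMSO to 35.4 and 45.3 in I-BET151. RFX3, a relative of RFX6 that also acts in cilium formation, had 8.90 and 5.21 in DMSO and 29.2 and 36.6 in I-BET151. SOX4 and ST18 had the smallest differences, 2.0 and 5.80, and their groups overlapped. The 10 progenitor markers had a median difference of 11.9.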

How the data were processed

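ATAC-seq peak lists of 4 libraries were analysed, DMSO and I-BET151 with 2 libraries each, grouped by the titles of the labels. Reads had been mapped by the authors to hg38 (Bowtie2, v2.2.5), cleared of duplicate and mitochondrial reads, and passed library by library to MACS2 (v2.1.2) for peak calling. The deposited lists give a display score (not used), a fold enrichment (the ratio of summit pileup to background), and both p-value and q-value as −log10. The lists reach down to a −log10 p of 2.95, whereas the methods state 5. Peaks were at least 200 bp long in the replicate 1 lists, 233 bp in DMSO replicate 2 and 256 bp in I-BET151 replicate 2, and MACS2 usually sets this length to its read extension, so the settings may have differed between lists.

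Peaks on the autosomes, X and Y were merged at an overlap of 1 base. Genes were those of GENCODE release 44. The pileup in whole reads was solved from fold and p-value (solved for at least 99.9% of peaks), and the number of reads was estimated with the default genome size of MACS2, so it scales with that size. Pileups at the named genes were 5 to 101 reads, and the spread of 2 libraries leaves out their counting error. Rank shifts were fitted with limma 3.58.1 in R 4.3.3 on normal scores of within-list ranks over regions called in all lists, with Benjamini-Hochberg adjustment over all of them, after a test on simulated data. Python 3.11.15 with pandas 2.3.3, scipy 1.17.1 and numpy 2.4.6 gave the other values. The 8 genes, the lists and the tests were chosen with earlier results of these data known. For each gene the text names the region at its start, the gained, lost and called regions and the highest-ranked region. For the other regulators it names the genes with the 2 largest and 2 smallest differences, and some genes of that list are not reported here. Just inside the 20 kb limit, the outermost PAX4 region had a fold enrichment of 8.86, 7.65, 14.8 and 18.0 in the 4 lists, and just outside it the next had 5.41, 4.78, 6.67 and 6.56. At NEUROD1 the inside region was called in 1 list (5.56) and the outside one in all (4.40, 4.09, 8.32 and 9.54). At RFX6 they had 5.40, 4.39, 8.86 and 9.27 inside, and outside 4.66, 8.91 and 12.9 with no call in DMSO replicate 2.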

Additional observations from a re-analysis of the deposited data

How the results depend on the processing

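The count of 9 gained regions was 4 in lists of equal length (9.19% of all merged regions) and 5 within 5 kb of the genes (17.0%), and it ranged from 10 to 19 when single libraries were left out (18.3% to 43.7%). The replicate 1 libraries alone gave 18 regions called only with I-BET151 (28.1% of all merged regions) and 11 called only with DMSO (26.8%), and the replicate 2 libraries alone gave 27 (48.6%) and 1 (3.84%). The lost count of 1 became 0 at a −log10 p of at least 10 (0.269% of all merged regions). In lists of equal length it was also 0 (5.85%). It was 0 within 5 kb and 2 within 50 kb (2.37% in both cases). Leaving out single libraries gave 1 to 8 (2.75% to 20.9%). The single region that moved up (3.41% of all regions called in all lists) became 2 at a −log10 p of at least 5 (3.56%). It became 0 at an overlap of 50% (2.53%), with ranks by −log10 p (0.0312%) and with scaled pileups (0.718%). When single libraries were left out, the shift of the ISL1 start region ranged from 1.42 to 2.22. The median gene difference was 36.1 at a −log10 p of at least 10, where weaker peaks count as 0. It was 10.7 within 5 kb, 11.1 within 50 kb and 7.12 in the replicate 1 libraries alone. When single libraries were left out it ranged from 11.4 to 28.2. Without the regions near mitochondrial pseudogenes, an alternative added once the data had been seen, it was 13.1. The median over all genes (10.7) is given for the main setting alone, so it is no like measure for these values. The INSM1 difference turned to 10.4 within 5 kb, the PAX6 difference ranged from -0.359 (without I-BET151 replicate 2) to 8.80 when single libraries were left out and was -2.29 in the replicate 1 libraries alone, and both MAFA shifts turned negative with scaled pileups (-0.399 and -0.0372). The downstream MAFA region passed at a −log10 p of at least 5 (limma, adjusted p = 0.0419), in lists of equal length (0.0203) and without I-BET151 replicate 2 (0.0120), and the MAFA start region passed at a −log10 p of at least 10 (0.0407), so a count of 1 under those settings is not always the ISL1 region. The ISL1 start region could not be fitted at a −log10 p of at least 10, in lists of equal length or at an overlap of 50%, where it was not in all lists. The causes were not tested.

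Libraries with the same number did not deviate together in rank (r = -0.143 over regions called in all lists, a description across regions), so the numbers were not taken as pairs. The shortest peak length, and fold enrichment near mitochondrial pseudogenes given below, did differ by number in both groups. Whether the numbers mark a batch was not tested. A fit with the replicate block called 2 regions as higher in place of 1 (3.84% of all regions called in all lists, against 3.41%). It called 0 as lower (2.54% of all, against 1.96%), and it changed the call of the downstream MAFA region (limma, adjusted p = 0.0352). Crossing the numbers, an alternative added once the data had been seen, called 2 higher (7.75% of all) and 0 lower (6.11% of all).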

Other observations

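Over the 26 merged regions within 200 bases of annotated mitochondrial pseudogenes, 2 of them at NEUROG3, the median fold enrichment was 5.30 in DMSO replicate 1, 15.4 in DMSO replicate 2, 5.98 in I-BET151 replicate 1 and 17.3 in I-BET151 replicate 2, beside 3.88, 4.08, 5.56 and 6.03 over all peaks. The values were high in replicate 2 of both groups. The lists held 12, 12, 16 and 22 of the 26 regions. No list held a peak on the mitochondrial chromosome.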
